A study of Mus musculus with 27 samples.

Results

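The 9 genes described here carry out or control antigen presentation by MHC class I: the heavy chains H2-K1 and H2-D1, the light chain B2m, the peptide transporter subunits Tap1 and Tap2, the loading factor Tapbp, the immunoproteasome subunits Psmb8 and Psmb9, and the transactivator Nlrc5. They were taken by symbol from the 40129 genes listed, and all 9 had a mean of at least 1 normalized read, as did 27137 genes of the series. RNA sequencing was performed on whole retinas of male and female C57BL/6 wild-type mice (C57BL/6J in the study's methods) in the model of oxygen-induced retinopathy (OIR). OIR pups breathed 75% oxygen from postnatal day 7 to 12 and then room air, which leaves the central retina ischemic at p14 and gives retinal neovascularization (RNV) that peaks at p17, whereas control pups (nOIR) stayed in room air throughout. At p14 the comparisons used 6 nOIR and 6 OIR mice, and at p17 6 nOIR and 8 OIR mice, each sample being 1 retina or both pooled retinas of 1 perfused mouse. A further nOIR p14 mouse, S4, was left out because the study excluded it for lens transcripts. The summed level of the lens crystallins Cryaa, Cryba1 and Crygs was 14572 normalized reads in S4, and it was higher in 4 of the 26 mice kept, namely nOIR p14 S5 (15704) and OIR p17 S2 (26935), S7 (14786) and S8 (18850). The mice came from 3 litters for nOIR and 4 for OIR at p14, and from 2 and 3 at p17, but the litter of each mouse was not given in the sources used here, so litter and group cannot be told apart.

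MHC class I molecules display peptides from inside the cell to CD8 T cells and to receptors of natural killer cells. Peptides are cut by the proteasome, whose constitutive catalytic subunits can be replaced by interferon-inducible ones, pumped into the endoplasmic reticulum by the TAP transporter and loaded with the help of tapasin onto a heavy chain paired with beta-2-microglobulin. Neurons of the healthy central nervous system express little class I, and interferons and NF-kappaB are the best known inducers of the pathway. NLRC5 drives class I transcription through a conserved promoter module to which RFX, CREB/ATF and NF-Y proteins bind, and which lies next to binding sites for IRF and NF-kappaB proteins.

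Sequences of this module are shown for the light chain and both classical heavy chains, because their windows each hold a kappaB motif, an X2/CRE core and a CCAAT box. Promoter windows from RefSeq (GRCm38.p6, 250 bases before to 50 bases after the transcript start) were found for 7 of the 9 members in 8 windows, H2-K1 having 2. Windows of Tap2 and Nlrc5 were not found. Each sequence is printed 5′ to 3′ on the strand of its gene. Capitals mark exact matches only. In the order printed these are the IRF motif (B2m only), the kappaB motif, the X2/CRE core and the CCAAT box. The CCAAT box appears as its reverse complement, ATTGG, and so does the kappaB motif of B2m (GGAAAGTCCC), which matched on the opposite strand. No marked motif overlaps another. B2m lies on chromosome 2 (chr2:122147538-122147648, plus strand), H2-K1 on chromosome 17 (chr17:34000349-34000468, minus strand) and H2-D1 on chromosome 17 (chr17:35262913-35263032, plus strand).
B2m: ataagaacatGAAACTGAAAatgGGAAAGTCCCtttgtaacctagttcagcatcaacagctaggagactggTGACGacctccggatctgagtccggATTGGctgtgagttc
H2-K1: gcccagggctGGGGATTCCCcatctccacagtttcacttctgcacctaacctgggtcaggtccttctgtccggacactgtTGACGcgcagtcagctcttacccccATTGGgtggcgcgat
H2-D1: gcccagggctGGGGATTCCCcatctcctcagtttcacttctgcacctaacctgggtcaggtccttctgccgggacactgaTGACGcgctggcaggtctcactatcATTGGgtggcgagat

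The stretches of H2-K1 and H2-D1 shared 108 of 120 bases (90.0%), and the kappaB motif began 70 bases upstream of the start of the X2/CRE core in both, against 48 bases in B2m. In all 3 genes the marked CCAAT box began exactly 25 bases after the start of the marked X2/CRE core. This spacing was looked for after it had been seen, and 0.0944% of 32851 mouse promoter windows held it. Outside the printed stretches, the windows of H2-K1 and H2-D1 held a further CCAAT box and that of B2m a further X2/CRE core. On both strands, the kappaB motif (GGGNNTTNCC) occurred in 3 of the 7 members with a window and in 4.79% of all windows. Matched by these exact letters, the IRF motif (GAAANNGAAA) occurred in B2m and in 3.44% of all windows. The X2/CRE core (TGACG) was found in B2m, H2-D1, H2-K1, Psmb9 and Tap1 and in 20.8% of all windows, and the CCAAT box in these 5 and Tapbp and in 37.4% of all windows. Psmb9 and Tap1 are transcribed away from each other, and their windows share 275 of 300 bases. A match of letters is a description of the sequence and was not tested as a binding site. Looser forms of the motifs were not looked for. H2-K1, H2-D1 and other members without an exact match are therefore not shown to lack a site.

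Between 17029536 and 33593428 reads per mouse (median 30024568) could be recovered from the normalized values, and 25529 to 27719 genes were above 0. The retinal neuron markers looked for were above 0 in each of the 26 mice. The mouse with the lowest depth was OIR p17 S1. Values below are normalized reads, given as lowest, median and highest mouse, and fold changes are differences of log2(normalized reads + 1) ± SE from limma with Benjamini-Hochberg adjustment over all genes tested. A gene was called higher or lower at an adjusted p under 0.05.

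At p14, during ischemia, all 9 genes had a positive fold change and 2, H2-K1 and H2-D1, were called higher in OIR, whereas 0 were lower. The background was 3.18% of genes called higher and 2.91% lower. The median log2 fold change of the 9 genes was 0.60, against 0.02 for all genes tested. At p17, during RNV, 8 of 9 were called higher and 0 lower, against a background of 7.39% higher and 5.12% lower, and the median was 1.19, against −0.02 for all genes. Nlrc5 was the member not called at p17. At p14 every OIR mouse lay above every nOIR mouse for H2-K1 and H2-D1 (background 1.91%), and at p17 for H2-K1, H2-D1, B2m, Tap2, Psmb8 and Psmb9 (background 3.9%). With the study's additional requirement of a log2 fold change above 2, no member was a DEG at either age by limma over the 26 mice, although Nlrc5 met it at p14 with nOIR p14 S4 included (2.81, adjusted p = 0.0416) and without OIR p14 replicate 2 (2.91, adjusted p = 0.0436), and 0.744% and 1.9% of genes passed it in the upward direction at p14 and p17. In bulk retina, more cells of a type and more RNA per cell cannot be told apart.

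**Figure D1:**
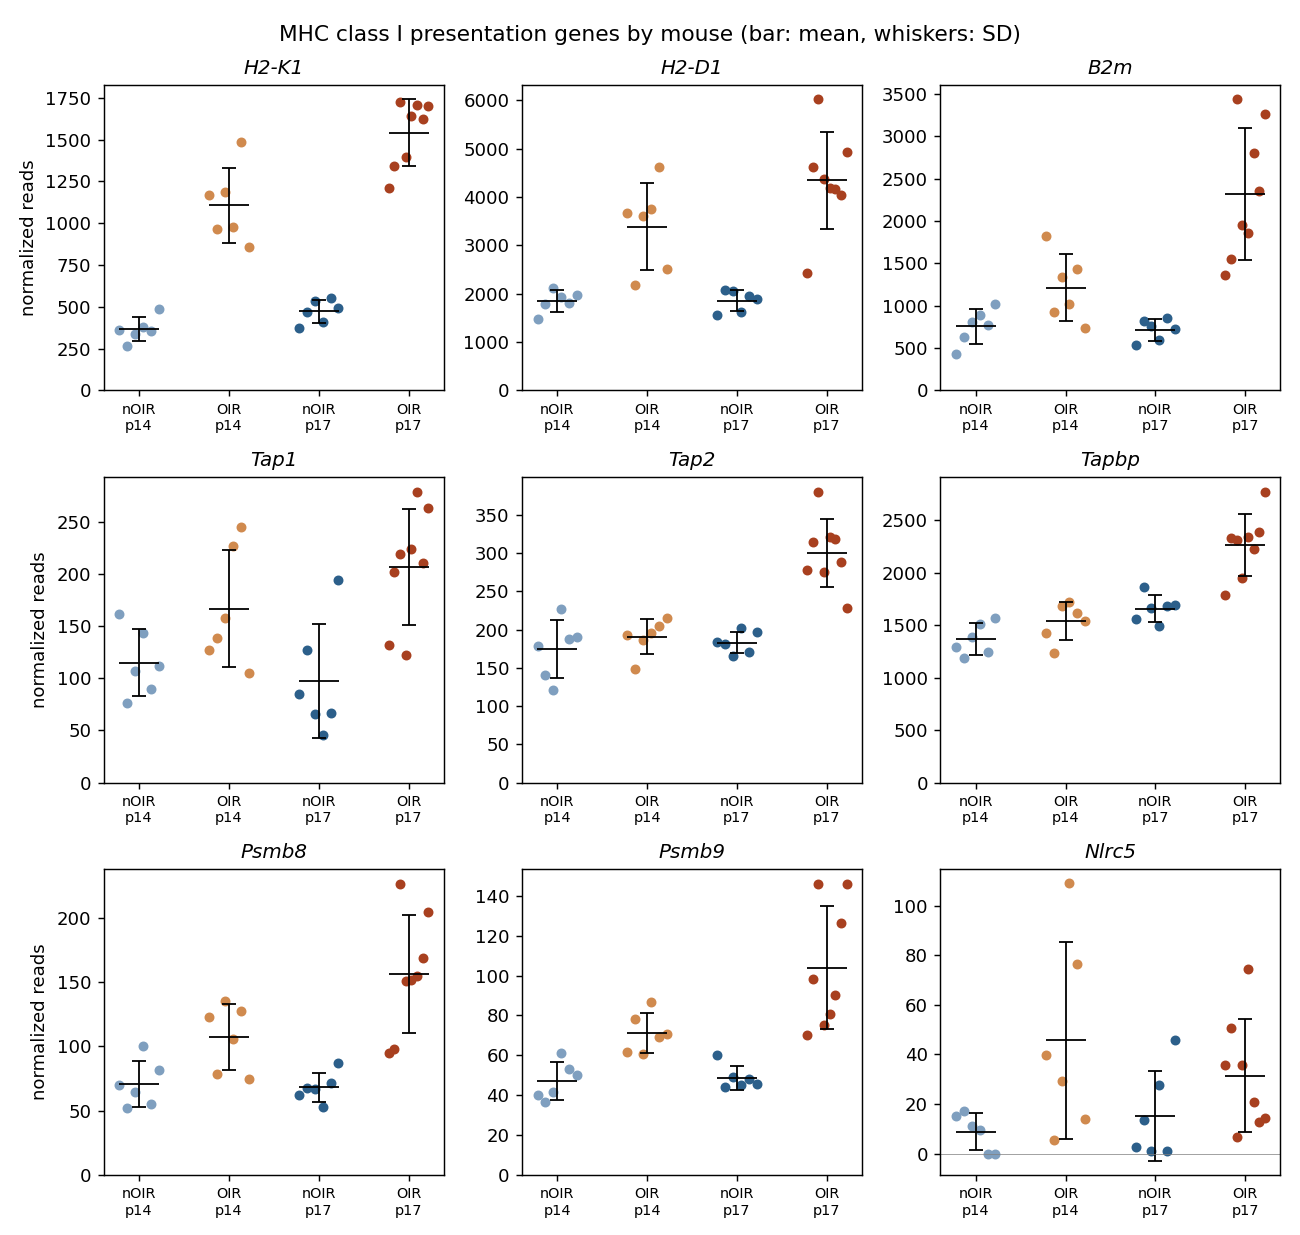
Normalized reads (y axis) of the 9 MHC class I presentation genes in each mouse (points) of the 4 groups (x axis), with the mean as a bar and the SD as whiskers. H2-K1 and H2-D1 in OIR lie above all nOIR mice at both ages, whereas Tap2 and Tapbp overlap between OIR and nOIR at p14.

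H2-K1, a classical heavy chain, had the smallest adjusted p of the members at both ages. At p14 it ranged from 265 over 359 to 488 normalized reads in nOIR and from 861 over 1073 to 1488 in OIR. At p17 it ranged from 372 over 481 to 551 in nOIR and from 1210 over 1632 to 1724 in OIR. The lowest OIR mouse was thus above the highest nOIR mouse at both ages. The log2 fold change was 1.60 ± 0.14 at p14 (adjusted p = 8.1e-09 by limma) and 1.71 ± 0.13 at p17 (adjusted p = 5.8e-11 by limma). These were 3.03-fold and 3.27-fold differences of the means. The change between ages of the OIR effect was 0.11 with a 95% interval from −0.28 to 0.50, so that the response to OIR at p17 was not distinguishable from that at p14.

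H2-D1, the other classical heavy chain of this strain, was the more abundant transcript. At p14 it lay at 1478, 1874 and 2128 normalized reads in nOIR and at 2174, 3635 and 4621 in OIR. At p17 it lay at 1555, 1924 and 2074 in nOIR and at 2438, 4282 and 6018 in OIR. The groups did not overlap at either age, although the lowest OIR mouse at p14 was only just above the highest nOIR mouse. The log2 fold change was 0.83 ± 0.17 at p14 (adjusted p = 0.0014 by limma) and 1.20 ± 0.15 at p17 (adjusted p = 1.1e-06 by limma).

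B2m encodes beta-2-microglobulin, the light chain that every class I heavy chain needs to reach the cell surface. At p14 it was 434, 795 and 1026 normalized reads in nOIR and 741, 1181 and 1823 in OIR. At p17 it was 536, 745 and 855 in nOIR and 1358, 2155 and 3436 in OIR. The groups overlapped at p14, where 4 of 6 OIR mice were above all controls, and were apart at p17. The log2 fold change was 0.66 ± 0.23 at p14 (adjusted p = 0.0861 by limma) and 1.65 ± 0.21 at p17 (adjusted p = 1.0e-06 by limma). The OIR effect was larger at p17 by 0.98 with a 95% interval from 0.35 to 1.62, but this difference did not pass the adjustment over all genes (adjusted p = 0.134 by limma), and it was called by DESeq2 on the recovered reads (adjusted p = 0.0407).

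Tap1 and Tap2 form the transporter that moves peptides into the endoplasmic reticulum. Tap1 was 76.8, 110 and 162 normalized reads in nOIR p14, 105.4, 148 and 245 in OIR p14, 45.2, 75.8 and 194 in nOIR p17, and 122, 215 and 279 in OIR p17. The groups overlapped at both ages, and 6 of 8 OIR mice at p17 were above all controls. Its log2 fold change was 0.51 ± 0.28 at p14 (adjusted p = 0.382 by limma) and 1.19 ± 0.27 at p17 (adjusted p = 0.0019 by limma). Tap2 was 121, 183 and 228 in nOIR p14, 149, 195 and 215 in OIR p14, 165, 183 and 202 in nOIR p17, and 228, 302 and 381 in OIR p17. None of the OIR mice exceeded the controls at p14 and all 8 did at p17. Its log2 fold change was 0.15 ± 0.14 at p14 (adjusted p = 0.688 by limma) and 0.70 ± 0.13 at p17 (adjusted p = 0.00033 by limma).

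Tapbp encodes tapasin, which bridges the transporter and empty class I molecules, and it was abundant in every group. It ranged from 1186 over 1339 to 1571 normalized reads in nOIR p14 and from 1237 over 1578 to 1723 in OIR p14. At p17 it ranged from 1495 over 1676 to 1868 in nOIR and from 1792 over 2324 to 2775 in OIR. In the latter group 7 of 8 mice lay above all controls. The fold change at p17 was the smallest of the 8 called members, 0.44 ± 0.09 on the log2 scale (adjusted p = 0.0011 by limma), and it was 0.17 ± 0.10 at p14 (adjusted p = 0.422 by limma).

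Psmb8 and Psmb9 are catalytic subunits of the immunoproteasome, which cuts proteins into peptides that suit class I molecules. Psmb8 was 52.1, 67.4 and 101 normalized reads in nOIR p14 and 74.95, 114 and 135 in OIR p14, and at p17 52.9, 67.6 and 87.1 in nOIR and 94.9, 154 and 227 in OIR. Its log2 fold change was 0.60 ± 0.22 at p14 (adjusted p = 0.12 by limma) and 1.15 ± 0.20 at p17 (adjusted p = 0.00015 by limma). Psmb9 was 36.6, 45.9 and 61.3 in nOIR p14 and 60.5, 70.0 and 86.9 in OIR p14, and at p17 44.2, 47.0 and 60.4 in nOIR and 70.0, 94.0 and 146 in OIR. Its log2 fold change was 0.60 ± 0.20 at p14 (adjusted p = 0.0814 by limma) and 1.03 ± 0.19 at p17 (adjusted p = 0.0002 by limma). For both subunits the groups overlapped at p14, for Psmb9 by 1 OIR mouse, and did not overlap at p17.

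Nlrc5, the transactivator of class I genes, was by far the lowest and most variable member. It was 0, 10.4 and 17.4 normalized reads in nOIR p14, 5.37, 34.5 and 109 in OIR p14, 0.928, 8.15 and 45.7 in nOIR p17, and 6.73, 28.2 and 74.5 in OIR p17. The groups overlapped at both ages, and mice of the same group differed more than 10-fold. The log2 fold change was 2.45 ± 0.86 at p14 (adjusted p = 0.101 by limma) and 1.67 ± 0.81 at p17 (adjusted p = 0.208 by limma). Over all settings tried it ran from 1.87 to 3.55 at p14 (adjusted p from 0.0416 to 0.284) and from 1.05 to 2.18 at p17 (adjusted p from 0.0929 to 0.506).

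**Figure D2:**
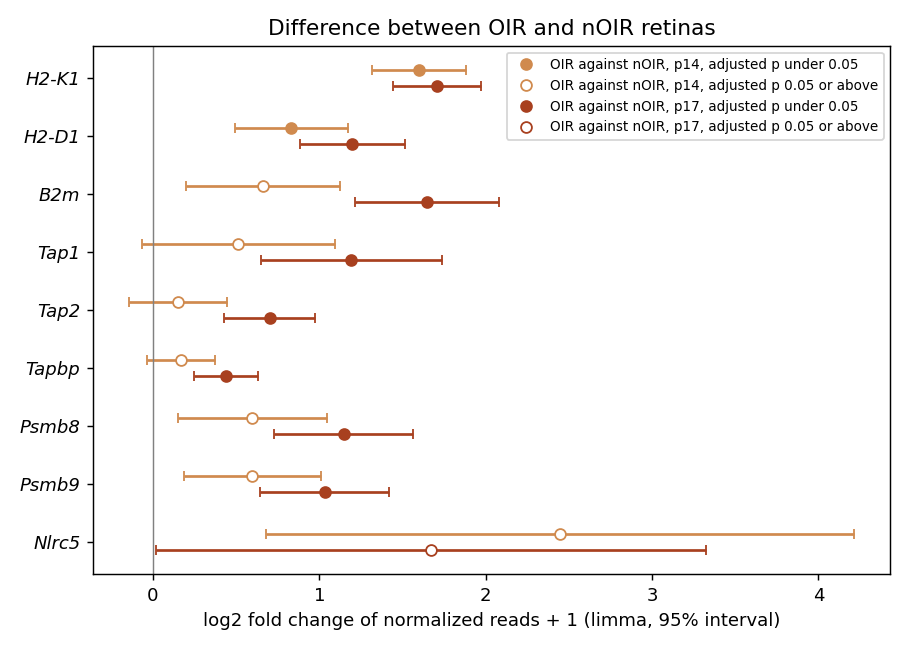
Log2 fold change of OIR against nOIR (x axis, limma, 95% interval as whiskers) of each member (y axis) at p14 and p17, filled where the adjusted p is under 0.05. H2-K1 and H2-D1 are filled at both ages, 6 further genes at p17 only by this threshold, and Nlrc5 at neither age.

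Exact two-sided permutation tests over the mice of each age gave p = 0.0022, the smallest that 6 against 6 mice allow, for H2-K1 and H2-D1 at p14. These exact permutation tests gave p = 0.0043 for Psmb9, 0.0195 for Psmb8, 0.0303 for B2m, 0.0433 for Nlrc5, 0.0779 for Tap1, 0.113 for Tapbp and 0.336 for Tap2 at p14. At p17 the exact permutation p was 0.00067, the smallest that 8 against 6 mice allow, for the 6 members without overlap, 0.0013 for Tapbp, 0.0047 for Tap1 and 0.0739 for Nlrc5. These p-values are per gene and not adjusted.

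The mouse excluded by the study, nOIR p14 S4, was lower than the other 6 controls for B2m (426 normalized reads), Psmb8 (30.7) and Psmb9 (15.9), and Nlrc5 was at 0. With it included, 6 members were called higher at p14 by limma, namely H2-K1, H2-D1, B2m (adjusted p = 0.0331), Psmb9 (0.0345), Nlrc5 (0.0416) and Psmb8 (0.0464). The number of members called at p14 thus depended on this mouse, whereas the 8 calls at p17 were kept with it included. With the 4 kept mice of higher crystallin level left out, an alternative chosen after seeing the data, limma called 2 members higher at p14 and 8 at p17 over the other 22 mice, and their part in the results was not tested further.

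A test of the difference between the OIR effect at p17 and at p14 called 0 of 9 members, with 2 (B2m and Tap2) at an unadjusted p under 0.05 by limma, against a background of 1.43% of genes with a larger and 0.147% with a smaller effect at p17. DESeq2 called 1, which was B2m, and edgeR called 0. Without nOIR p14 replicate 1, limma also called B2m (adjusted p = 0.0489). The median difference was 0.43 on the log2 scale. More members passed the threshold at p17 than at p14, which by itself does not show that the effects differed.

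Between p14 and p17 in nOIR retinas, 0 of 9 members were called by limma, edgeR or DESeq2 and 2 (H2-K1 and Tapbp) had an unadjusted p under 0.05, with 0.158% of genes called higher and 0.158% lower. In OIR retinas 4 of 9 were called higher at p17 than at p14 and 0 lower, against 4.11% and 1.81% of all genes. These were B2m by 0.93 ± 0.21 (adjusted p = 0.006 by limma), Tap2 by 0.65 ± 0.13 (adjusted p = 0.0022 by limma), Tapbp by 0.56 ± 0.09 (adjusted p = 0.0002 by limma) and H2-K1 by 0.49 ± 0.13 (adjusted p = 0.0183 by limma). These comparisons share mice with those of OIR against nOIR.

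Per kilobase of exon (exon union of the GENCODE M21 annotation, GRCm38), the order of the mean levels in nOIR p14 was B2m with 884 ± 241, H2-D1 with 719 ± 86.0, Tapbp with 376 ± 41.9, H2-K1 with 124 ± 24.6, Tap2 with 46.1 ± 10.1, Tap1 with 21.0 ± 5.87, Psmb8 with 20.9 ± 5.37, Psmb9 with 12.9 ± 2.56 and Nlrc5 with 1.04 ± 0.87 normalized reads per kb (SD, n = 6). B2m and H2-D1 were closer to each other than the SD of B2m but not that of H2-D1, and Tap1 and Psmb8 were closer to each other than either SD. In OIR p17 the levels per kb were 2700 ± 903 for B2m, 1686 ± 388 for H2-D1, 624 ± 81.6 for Tapbp and 525 ± 67.4 for H2-K1 (SD, n = 8). The order of these 4 genes was the same as in nOIR p14, and the levels of Tapbp and H2-K1 per kb differed by less than 2 SD of either gene.

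In each mouse, an induced proteasome subunit was set against the constitutive subunit whose place it takes. Ratios are of normalized reads + 1 of the 2 genes, given as percentages that were not corrected for exon length. Psmb8 stood at 4.13%, 4.69% and 6.95% of Psmb5 in nOIR p14 and at 6.26%, 9.41% and 11.7% in OIR p14. At p17 the same ratio was 4.55%, 5.20% and 7.16% in nOIR and 9.57%, 12.5% and 14.6% in OIR, with no overlap. The difference of the log2 ratio was 0.82 at p14 (exact permutation test, adjusted p = 0.0097 over 6 tests) and 1.21 at p17 (exact permutation test, adjusted p = 0.002 over 6 tests). For Psmb9 to Psmb6 it was 0.66 at p14 (exact permutation, adjusted p = 0.013) and 1.02 at p17 (exact permutation, adjusted p = 0.0027). For Psmb10, the remaining induced subunit, the median ratio to Psmb7 was 21.1% in nOIR p14, 25.5% in OIR p14, 20.3% in nOIR p17 and 30.8% in OIR p17. Its difference was 0.32 at p14 (exact permutation, adjusted p = 0.0195) and 0.62 at p17 (exact permutation, adjusted p = 0.002). Per kb, the mean levels in nOIR p14 were 20.9 for Psmb8 against 1551 for Psmb5, 12.9 for Psmb9 against 2952 for Psmb6, and 252 for Psmb10 against 595 normalized reads per kb for Psmb7. All 6 ratios were higher in OIR, and at p17 the ratios of Psmb8 and Psmb10 did not overlap between the groups. None of the 14 constitutive core subunits was called at either age by limma, edgeR or DESeq2, 0 had an unadjusted p under 0.05 at either age, and the median log2 fold changes were −0.03 and −0.01.

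**Figure D3:**
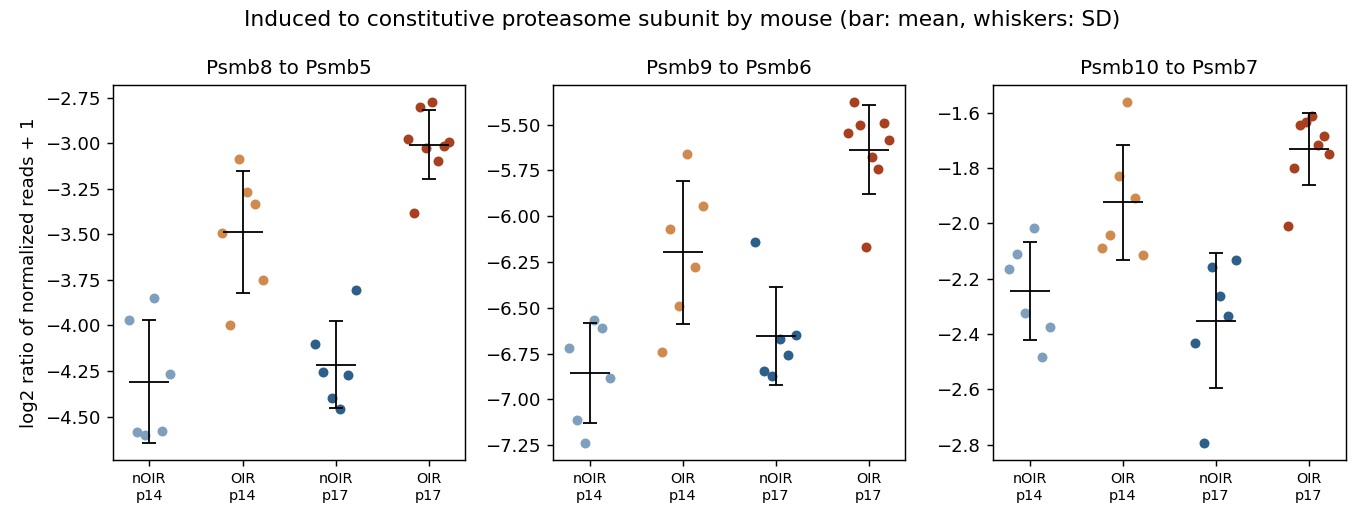
Log2 ratio of normalized reads + 1 (y axis) of each induced proteasome subunit to the constitutive subunit it replaces in each mouse (points) of the 4 groups (x axis), with the mean as a bar and the SD as whiskers. The OIR means lie above the nOIR means for all 3 pairs at both ages, and the groups are fully apart at p17 for Psmb8 to Psmb5 and Psmb10 to Psmb7.

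Of 20 other class I and class I-like heavy chain genes, 16 were tested, and 7 were called higher at p14 and 9 at p17, with 0 lower at either age. The background for this and the lists below was 3.18% of genes higher and 2.91% lower at p14. At p17 it was 7.39% higher and 5.12% lower. The median log2 fold change of the 16 was 0.52 and 0.63. With each mouse rescaled to the same total, 8 and 9 were higher, and after quantile normalization 6 and 7. H2-Q2 lay at 16.0, 20.5 and 32.4 normalized reads in nOIR p14 and at 105.4, 184 and 273 in OIR p14, with log2 fold changes of 2.96 ± 0.29 and 2.69 ± 0.27 at p14 and p17. H2-Q7, a Qa-2 antigen, lay at 6.28, 11.6 and 16.2 in nOIR p14 and at 47.8, 73.6 and 80.7 in OIR p14, with log2 fold changes of 2.50 ± 0.28 and 3.03 ± 0.26. H2-T23 encodes Qa-1, which presents leader peptides of other class I chains to receptors of natural killer cells, and its log2 fold changes were 1.46 ± 0.23 and 1.44 ± 0.21. H2-Q6 had log2 fold changes of 2.00 ± 0.45 and 2.28 ± 0.42. H2-K1 had 1.60 and 1.71 from higher read numbers, and the differences between genes were not tested. Fcgrt, the neonatal Fc receptor, which also pairs with beta-2-microglobulin but does not present peptides, was at 384, 496 and 539 in OIR p17 and at 201, 259 and 391 in nOIR p17. It had a log2 fold change of −0.16 ± 0.15 at p14 (adjusted p = 0.67 by limma) and 0.85 ± 0.14 at p17 (adjusted p = 4.8e-05 by limma), and was the heavy chain gene whose OIR effect differed between the ages (1.01, adjusted p = 0.0049 by limma). H2-T24 and Mr1, which presents vitamin metabolites, did not pass at p17, with 0.03 ± 0.18 and 0.31 ± 0.20.

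**Figure D4:**
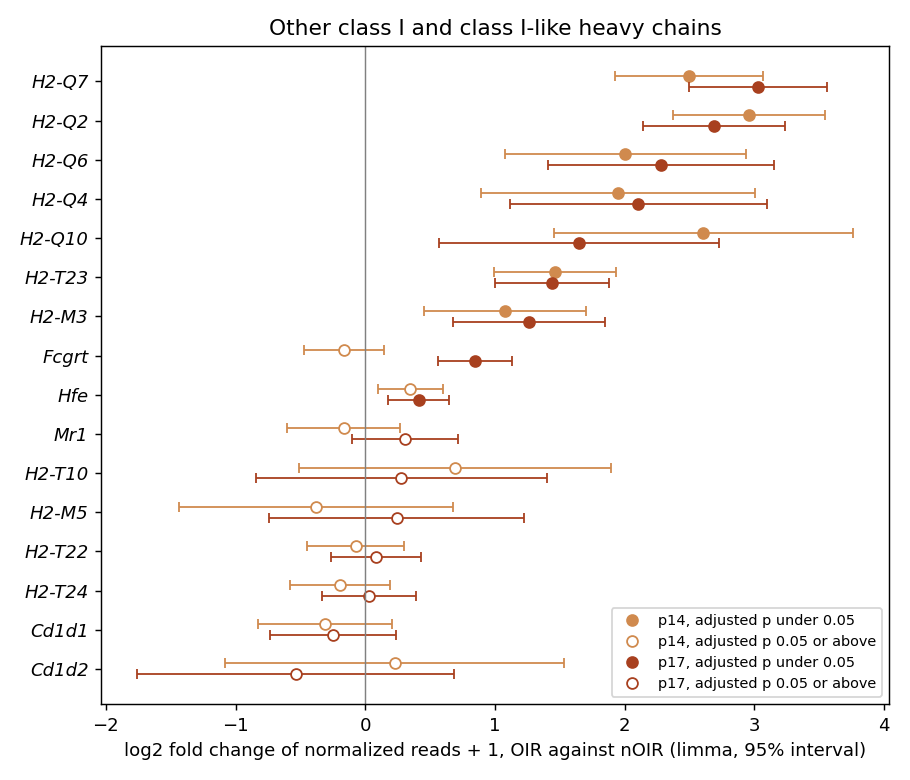
Log2 fold change of OIR against nOIR (x axis, limma, 95% interval as whiskers) of the 16 other class I and class I-like heavy chains tested (y axis) at p14 and p17, filled where the adjusted p is under 0.05. The values of H2-Q2, H2-Q7, H2-Q6 and H2-T23 are filled at both ages, and Fcgrt at p17 only by this threshold.

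Heavy chain genes are close copies of each other. Reads that map to several places were not counted by the authors' settings, so values of single heavy chains, above all of the Q and T series, are uncertain. Members also overlap other genes in the GRCm38 annotation, and the libraries were not stranded. Patl2 lies antisense to B2m and was at most 18.3 normalized reads in any mouse. Zbtb22, on the same strand as Tapbp, was at medians of 1079 to 1320 and was not called at p14 or p17 (adjusted p = 0.463 and 0.492 by limma). Tap1 and Psmb9 overlap head to head by 212 bases, so that reads there could belong to either.

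Of 13 other chaperones, peptidases and loading factors of the class I route, 0 were called at p14 by limma, edgeR or DESeq2, with 0 at an unadjusted p under 0.05, and 1 was called higher at p17, a share close to the background of 7.39%. The gene was Sec61a1, a subunit of the translocon, by 0.29 ± 0.07 (adjusted p = 0.0046 by limma). Hspa5 and Canx, endoplasmic reticulum chaperones with the highest levels of those not called, had 0.29 and −0.05 at p17. After quantile normalization or rescaling to the same total, 3 of the 13 were higher at p17. Among 6 other immunoproteasome and activator genes, Psmb10 was called higher at p17 by 0.55 ± 0.16 (adjusted p = 0.0173 by limma). The activator subunits Psme1 and Psme2, which open the proteasome core, had 0.11 and 0.34 at p17 (adjusted p = 0.582 and 0.0503 by limma), and under edgeR, DESeq2 and both other scalings 2 of the 6 genes were called. Without OIR p17 replicate 1, 2 were called higher and 1 lower.

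Of 28 regulators of class I expression, 7 were called higher and 1 lower at p14, and 10 higher and 1 lower at p17. The background was 3.18% higher and 2.91% lower at p14, and 7.39% and 5.12% at p17. Stat3, a transcription factor of the IL-6 family pathway, lay at 2396, 2596 and 2762 normalized reads in nOIR p14 and at 3704, 7057 and 8430 in OIR p14, with log2 fold changes of 1.36 ± 0.16 and 1.52 ± 0.15. Socs3, its feedback inhibitor, had 2.96 ± 0.37 and 2.66 ± 0.35. Irf8, an interferon regulatory factor of myeloid cells, lay at 64.9, 69.9 and 83.9 in nOIR p17 and at 157, 250 and 428 in OIR p17, with log2 fold changes of 1.17 ± 0.20 and 1.84 ± 0.19. Irf7, the main amplifier of type I interferon, was not called at p14 (0.36 ± 0.16, adjusted p = 0.25 by limma) and rose at p17 (1.52 ± 0.15), and this difference between the ages was called (adjusted p = 0.0026 by limma). Relb, the noncanonical NF-kappaB subunit, had 0.37 ± 0.27 at p14 and 1.96 ± 0.25 at p17, with a called difference (adjusted p = 0.0157 by limma). Jak1 and Creb1, the most abundant regulators not called, had 0.01 and −0.01 at p17. Irf1, a direct activator of Nlrc5 and of class I genes, named after its values were seen, had 0.89 ± 0.21 and 0.99 ± 0.19 and was called at both ages. Rfx5, a subunit of the RFX complex and also named after its values were seen, was the only regulator called lower, by −0.50 ± 0.12 at p14 (adjusted p = 0.0108 by limma) and −0.43 ± 0.12 at p17 (adjusted p = 0.0092 by limma).

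Of 9 interferon genes looked for, 3 were listed, Ifnb1, Ifnl2 and Ifnk, and 0 reached a mean of 1 normalized read. The highest value in any mouse was 11.4 for Ifnb1, which was 0 in 22 of 26 mice. Of 27 interferon response genes tested, 4 were called higher at p14 and 15 at p17, and 0 lower, with medians of 0.56 and 1.12. The background of genes called higher was 3.18% at p14 and 7.39% at p17. Under the other scalings and tools 3 to 6 were higher at p14 and 13 to 16 at p17, and DESeq2 called 1 lower at p14. Ifitm3, which blocks viral fusion, had log2 fold changes of 0.72 ± 0.29 and 2.30 ± 0.27, and Bst2 (tetherin) had 0.60 ± 0.29 and 1.81 ± 0.27. Cxcl10, a chemokine that attracts T cells, had 3.16 ± 0.64 and 3.74 ± 0.60, from at most 4.64 normalized reads in nOIR p17 to a median of 48.4 in OIR p17. Ifi27 and Irgm1 had 1.21 ± 0.18 and 1.16 ± 0.22 at p17. Ifit2, the most abundant of those not called at p17, had 0.61 ± 0.16 at p14 (adjusted p = 0.0162 by limma) and 0.15 ± 0.15 at p17.

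Of 5 tested genes on a list of class I receptors and their relatives, Lilrb4a, an inhibitory receptor of myeloid cells that is not an established receptor of class I in mice, was called at both ages, and Pirb, an inhibitory receptor of class I on myeloid cells and neurons, at p17. Lilrb4a was 0 in all 6 nOIR p14 mice and at 0, 14.9 and 18.8 normalized reads in OIR p14. Pirb was 0, 1.47 and 6.49 in nOIR p17 and 0, 10.2 and 26.4 in OIR p17, with a log2 fold change of 1.99 ± 0.63 (adjusted p = 0.0333 by limma). Cd8a, the co-receptor of cytotoxic T cells, had 0.54 ± 0.29 at p17 (adjusted p = 0.271 by limma).

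Most markers of microglia and macrophages were higher in OIR at p17, and fewer at p14. Of 14, 4 were called higher at p14 and 11 at p17, and 6 had a larger OIR effect at p17 than at p14. Over all genes, 3.18% were higher at p14, 7.39% at p17, and 1.43% had a larger effect at p17. Lower genes were 2.91% at p14 and 5.12% at p17. Their summed level was 2792, 3047 and 3723 normalized reads in nOIR p14, 3451, 3938 and 5024 in OIR p14, 2427, 2585 and 2638 in nOIR p17, and 4692, 7164 and 8998 in OIR p17. C1qb and Cd68 had log2 fold changes of 2.07 ± 0.16 and 2.60 ± 0.23 at p17, whereas markers of resident microglia differed among themselves. Cx3cr1 had 1.62 ± 0.14 at p17 (adjusted p = 5.8e-10 by limma) and all 8 OIR mice lay above all controls, while P2ry12 and Tmem119 had 0.03 ± 0.24 and 0.71 ± 0.27 and were not called. At p14 Cx3cr1 had 0.31 ± 0.15 (adjusted p = 0.279 by limma), P2ry12 had -0.79 ± 0.26 (adjusted p = 0.0636 by limma) and Tmem119 had -0.18 ± 0.29 (adjusted p = 0.845 by limma). Endothelial markers also moved, with 2 of 10 higher and 1 lower at p14 and 8 of 10 higher at p17, and their sum went from 9702, 10210 and 11321 in nOIR p17 to 14030, 16685 and 17856 in OIR p17. Of 8 Müller glia and astrocyte markers, 3 were higher and 3 lower at p14, and 4 higher and 3 lower at p17. Of 16 retinal neuron markers, 6 were lower at p14 and 7 at p17, and 0 were higher. With the same total per mouse 5 and 4 were lower, and after quantile normalization 5 and 5. The part of these cell types in the levels of the class I genes was not tested.

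Most T and NK cell markers were near 0. Of 14 T and NK cell markers, 13 were listed and 6 tested, and 0 were called at either age by limma, edgeR or DESeq2, with 0 and 1 at an unadjusted p under 0.05 at p14 and p17. Cd3e, Cd3g, Nkg7, Gzma, Gzmb and Prf1 had means under 1 normalized read and at most 4.95 in any mouse, Cd3e being 0 in 23 of 26. Trbc1 also had a mean under 1, with 0 in 20 mice and at most 8.17. By contrast, Cd8a (10.2 to 84.0) and Trac (0.887 to 26.3) were above 0 in all 26 mice. Cd4 reached 28.7 and was 0 in 4 mice. The median log2 fold change of the 6 tested genes was 0.06 at p14 and 0.76 at p17. The summed level of the list was 26.1, 64.5 and 73.9 in nOIR p17 and 46.4, 97.9 and 119 in OIR p17. Among 7 tested B cell and neutrophil markers, Cd79b and S100a8 were called higher at p17, from means of 7.36 and 3.02 normalized reads over all mice. The count was 1 by edgeR, and 3 by DESeq2 and with the same total per mouse. Of 9 lens, pigment epithelium and blood markers, 3 were called higher at p17, and these were the red cell genes Hbb-bs, Hba-a1 and Alas2. For these last 2 lists the background of genes called higher at p17 was 7.39%.

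**Figure D5:**
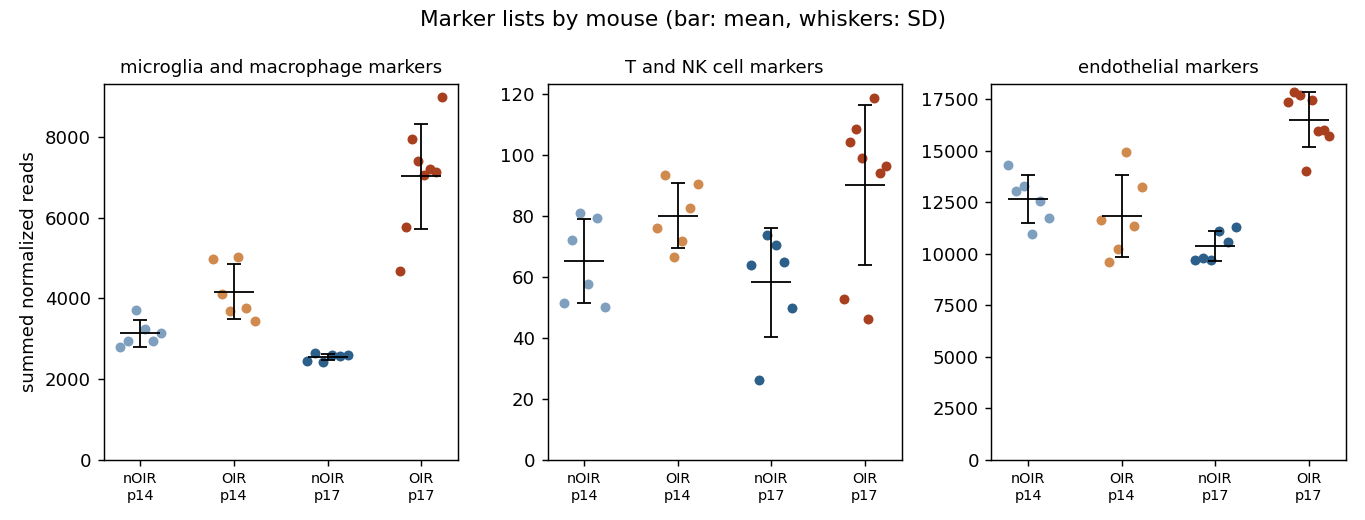
Summed normalized reads (y axis) of the microglia and macrophage, T and NK cell, and endothelial marker lists in each mouse (points) of the 4 groups (x axis), with the mean as a bar and the SD as whiskers. The microglia and macrophage sum in OIR p17, from 4692 to 8998, lies above all other groups except the highest OIR p14 mice, whereas the T and NK cell sum stays at or under 119 in every mouse.

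Across the 26 mice the members largely moved together. Pearson's r of a member with the mean of the other 8, on standardised log2 values, was 0.93 for Psmb8, 0.93 for H2-D1, 0.92 for H2-K1, 0.89 for B2m, 0.85 for Psmb9, 0.80 for Tapbp, 0.77 for Tap2, 0.76 for Tap1 and 0.42 for Nlrc5. After group means were subtracted it ranged from −0.10 for Nlrc5 and 0.27 for Tap2 to 0.83 for Psmb8. Of 19004 other genes, those most like the mean of the members were Irf8 (r = 0.96), Phlda3 (0.96), Csrp1 (0.95), Olfm2 (0.94), Tnfrsf1a (0.94), Plvap (0.94), Ifitm3 (0.94), Ube2l6 (0.94), Arpc1b (0.94) and Pgf (0.94). After subtracting group means the nearest were Phlda3 (0.87), Ifitm3 (0.85) and Rtp4 (0.83). The points share the 4 groups and the libraries, and these values are descriptions. The gene nearest to B2m was Sparc (0.97), to H2-K1 Nupr1 (0.97) and to H2-D1 Phlda3 (0.96). Within groups, B2m was nearest to Vamp8 (0.93), Pomp (0.92) and Rps13 (0.92), which were not called at either age. Within OIR p17, mouse S1 was lowest for 6 of the 9 members and also had the lowest microglia and macrophage sum (4692) and the fewest reads, and mouse S3 was highest for 6 of 9. All 8 calls at p17 were kept when S1 was left out.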

How the data were processed

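The deposited table held DESeq2-normalized reads per gene (unit signal, a scaled read signal) for 27 retinas. Per the submitters' notes and the study's methods, the authors aligned single reads with STAR 2.7.8a, counted them with featureCounts 2.0.1 and normalized them with DESeq2 1.34. Multi-mapping reads were not counted. Columns of the authors' group means, fold changes and adjusted p-values were not used. In every mouse 100.0% of values were whole multiples of the smallest step (tolerance 0.01), which returned the reads used by edgeR 4.0.16 and DESeq2 1.42.0 as alternatives. The main test was limma 3.58.1 (trend) on log2(normalized reads + 1) over 4 groups and 26 mice, for 27137 genes with a mean of at least 1 and called at an adjusted p under 0.05. It replaced the study's DESeq2, since the values were normalized. On simulated data for OIR p17 against nOIR p17 (26762 genes) it recovered 69% of 100 genes changed by 0.5 and 99% of 100 changed by 1 on the log2 scale, with 5 false calls. The simulation gave every gene the same dispersion, had no litter differences and changed no genes of low level. Among members in OIR p17, the SD was 12.8% of the mean for H2-K1 and 72.6% for Nlrc5. These shares therefore need not hold for variable or low genes. Lists of over 10 genes are named by up to 5 genes with the smallest adjusted p at p17 and 2 not called with the highest mean. Genes of like pattern needed a mean of at least 10. Members and lists were chosen with earlier results of these data known. Some items are not reported here.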

Additional observations from a re-analysis of the deposited data

Results flagged for a closer look

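In 36 combinations of member and group, 2 had a mouse far from the others of its group, and about 1 in 20 such combinations does so by chance. H2-D1 in OIR p17 was lowest in mouse S1, at 2438 normalized reads, while the other 7 lay between 4041 and 6018. Psmb9 in nOIR p17 was highest in mouse S1, at 60.4 normalized reads, while the other 5 lay between 44.2 and 49.0.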

How the results depend on the processing

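The 8 members called higher at p17 were 8 in every setting tried, and no member's fold change changed direction. At p14 the main count of 2 rose to 6 with nOIR p14 S4 included and to 4 by DESeq2 (H2-K1, H2-D1, B2m and Psmb9), and leaving out single mice gave 2 to 3. The count of members whose OIR effect differed between the ages rose from 0 to 1 by DESeq2, and ranged from 0 to 1 when single mice were left out. Same-numbered mice of different groups did not all deviate together (r from −0.11 to 0.16, median 0.003, over 34 pairs, and −0.22 to 0.15 over 218 differently numbered pairs), not every mouse correlated best with its own number, and the labels tie the numbers to no litter or batch. The S1 mice of nOIR p14, nOIR p17 and OIR p17 correlated at 0.14 to 0.16, but not with OIR p14 S1 (−0.08 to −0.02). With a replicate block, B2m passed at p14 (0.76, adjusted p = 0.0391 by limma), and the count of all genes with a differing effect went from 429 to 269, against 690 by DESeq2. Genes that differed between the ages in nOIR numbered 86, 187 in a fit of the compared groups only, 236 by DESeq2, and 34 to 131 when single mice were left out, and in OIR 1605 against 1018 in the fit of the compared groups only. B2m at p14 also passed without OIR p14 replicate 6, Nlrc5 without OIR p14 replicate 2, and Psmb9 with a mean of at least 10 or the same total per mouse. With the 4 kept mice of higher crystallin level than S4 left out, a choice made after seeing the data, the counts of all genes with a differing effect and of genes that differed between the ages in nOIR and in OIR were 231, 56 and 856. The causes were not tested. All subunit ratios kept their calls. Nlrc5 had 0 to 123 recovered reads per mouse.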

Other observations

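Heavy chain genes outside the lists were picked after their values were seen, so they do not stand for such genes in general. By limma, H2-Q5 was called higher in OIR at both ages, H2-Bl at p14 and H2-K2 at p17. H2-Q5 lay at 0, 8.9996 and 14.6 normalized reads in nOIR p14 and at 14.0, 33.7 and 53.5 in OIR p14, with log2 fold changes of 2.33 ± 0.48 (adjusted p = 0.0020 by limma) and 1.49 ± 0.45 at p17 (adjusted p = 0.0239 by limma). H2-Bl had 2.86 ± 0.69 at p14 (adjusted p = 0.0091 by limma) and 0.96 ± 0.65 at p17 (adjusted p = 0.417 by limma), with at most 26.2 normalized reads, and its difference between the ages was not called (adjusted p = 0.481 by limma). H2-K2 had 0.25 ± 0.13 at p14 (adjusted p = 0.347 by limma) and 0.54 ± 0.12 at p17 (adjusted p = 0.0023 by limma), with medians of 366 in nOIR p17 and 548 in OIR p17. These genes are close copies of other heavy chains and their reads may be shared with them.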
